A study of Sus scrofa with 12 samples.

Results

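PDGF-BB and S100A4 were given to cultured coronary artery smooth muscle cells of the pig alone and together, and the interaction asks whether their joint effect on a transcript differs from the product of their separate effects. For each gene the log2 interaction was the log2 fold change that S100A4 gave in cells with PDGF-BB minus the log2 fold change it gave in cells without it. A value of 0 means that the fold changes multiply, a negative value that the combination lies below their product, and a positive value that it lies above. Genes with at least 10 counts in 3 or more of the 12 libraries were used, which were 12520 of the 21153 genes in the table. Levels below are in CPM, a gene's counts scaled to the size of its library.

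The 4 groups of 3 libraries each were untreated control cells, cells with 30 ng/ml PDGF-BB, cells with 1 µg/ml S100A4, and cells with both, all collected after 4 h. Every group, control included, was kept in medium with fetal calf serum. The cells were primary cultures between passages 6 and 11, labelled differentiated and contractile, and came from 3 animals. Smooth muscle markers were detected in every library, although transgelin (TAGLN) had a mean of only 2.42 log2 CPM.

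PDGF-BB is a growth factor that binds PDGF receptors, which are receptor tyrosine kinases that switch on the RAS-ERK and PI3K pathways and drive smooth muscle cells to migrate and divide. S100A4 is a small calcium-binding protein which, outside the cell, can act through receptors such as RAGE and TLR4 and switch on NF-kB, the transcription factor family of inflammatory genes. Both stimuli are studied in the change of arterial smooth muscle from a contractile to a proliferative or inflammatory state.

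Libraries held 21455021 to 32448438 counts. The 4 libraries numbered replicate 2 stood apart on the first principal component, at 41.3 to 60.1, against -40.2 to -14 for the other 8. Their summed level of 8 smooth muscle markers was 7910 to 9310 CPM against 17500 to 21800 CPM in the others, and that of 7 pericyte markers was 328 to 442 against 1170 to 1970 CPM. Fibroblast markers summed to 1620 to 1850 CPM in replicate 2 and to 1090 to 1540 CPM in the others, and endothelial markers to 140 to 224 and 55.3 to 157 CPM. Single members differed. In control cells FBLN1 was at 129 CPM in replicate 2 against 10.1 and 6.74 CPM in replicates 1 and 3. COL14A1 went the other way, at 608 against 922 and 763 CPM. By group, the summed endothelial markers ranged from 55.3 to 140 CPM in control, 120 to 224 with PDGF-BB, 59.4 to 151 with S100A4 and 133 to 209 with both. The sum does not stand for each member. PECAM1 was a small part of it, with means of 11.2 CPM in control and 13 CPM with PDGF-BB. Over the 6 tested members the median log2 effect of PDGF-BB was 0.32 without S100A4 and 0.07 with it. The T cell and epithelial markers found, 5 of each, were under 10 counts in every library, as were 5 of 9 macrophage markers. The part of these differences in the interaction was not tested, but the interaction of the summed smooth muscle markers was 0.07, 0.20 and 0.10 in replicates 1, 2 and 3, and that of the endothelial markers 0.05, -0.20 and -0.15. The smooth muscle sum was mostly ACTA2, at 6550 to 17500 CPM. Gene by gene, the 8 smooth muscle markers had a median interaction of 0.23, and all 8 were above 0 (52.8% of all genes). At an unadjusted p under 0.05, 4 were above the product (4.82% of all genes), limma on the per-replicate values called 3 (0.759%), and edgeR called none. In such bulk samples fewer cells of a type and less RNA per cell cannot be told apart.

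Few genes passed the threshold for a departure from the product of the separate effects. A gene that did not pass may still depart from it. The edgeR test with the replicate number as a block called 14 genes at an adjusted p under 0.05 (0.112% of those tested), 12 with the combination below the product (0.0958%) and 2 above it (0.016%). At an unadjusted p under 0.05 there were 1186 genes (9.47%). All 14 had the same sign in each of the 3 replicate numbers, which the test favours and which is no separate support. Of the 14, 13 had at least 10 counts in all 12 libraries. Without the replicate block no gene passed (0%), and 151 genes had an unadjusted p under 0.05, while limma on the 3 per-replicate values called 292 (2.33%), 95 above (0.759%) and 197 below the product (1.57%), with the 14 among them.

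The effects of each protein are given beside the interaction to show its form. They share libraries with it, the controls among them, and so are no separate evidence for it. S100A4 changed 10.7% of the genes in cells without PDGF-BB, 6.42% upward and 4.26% downward, and 7.08% in cells with it, 5.08% upward. PDGF-BB changed 48.5% in cells without S100A4 and 47.6% in cells with it, 22.7% downward. Both proteins together changed 55.9% of the genes against control, 28.4% downward.

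In the fit with the replicate block, the data bound the interaction for most genes. The median standard error was 0.11 on the log2 scale and the median half-width of the 95% interval 0.23. For 9371 genes (74.8%) the whole interval lay within 1.5-fold of no interaction, and for 10927 (87.3%) within 2-fold. Among the 980 genes past the threshold for both proteins given singly, the interval lay within 1.5-fold for 772. These intervals rest on the block. Without it the standard error was 0.59 against 0.07 for IGFBP5, 0.41 against 0.11 for PTHLH and 0.09 against 0.07 for WTAP. Across all genes the median interaction was 0.01. The per-replicate interactions correlated weakly between replicate numbers (Pearson r 0.086 to 0.123). The plot of the S100A4 effect without against with PDGF-BB shows the called genes off the diagonal.

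**Figure D1:**
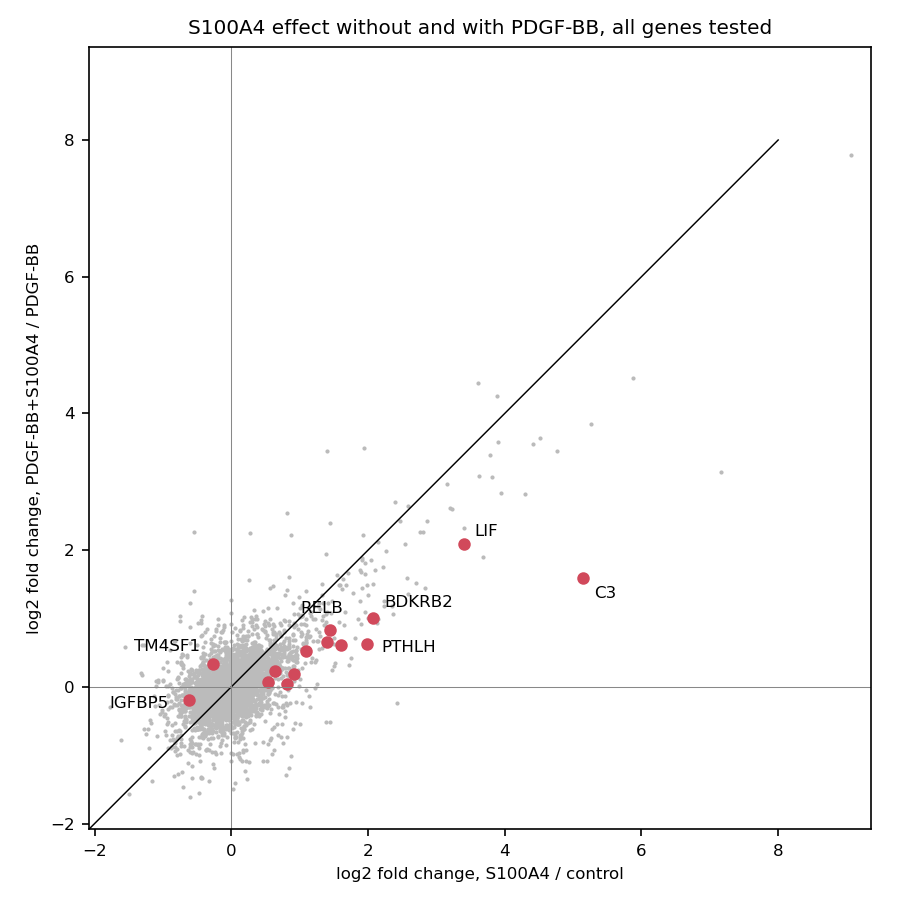
The log2 fold change of S100A4 over control (horizontal) is plotted against that of both proteins over PDGF-BB alone (vertical) for all 12520 genes, with the 14 called genes in red and the line of equal effect in black. C3, PTHLH, LIF and BDKRB2 lie below the line and TM4SF1 and IGFBP5 above it, and the 2 axes share no library.

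The calls depended on the libraries used. Leaving out replicate 2 of all groups gave 126 calls, with 13 of the 14 among them, whereas leaving out replicate 1 or replicate 3 gave 1 and 2. Leaving out single libraries gave 17, 29 and 2 calls for control replicates 1, 2 and 3, and 1, 18 and 4 for PDGF-BB. It gave 1, 21 and 2 for S100A4, and 9, 35 and 3 for the combination. PTHLH passed in all 15 of these settings, BDKRB2 in 10, LIF in 9, NEDD4L in 8, TM4SF1 and CEMIP in 7, IGFBP5 and MAFF in 6, NAB1 in 5, and C3, RELB, WTAP, PMAIP1 and PXYLP1 in 4. None of the 14 changed sign, though these settings share most of their libraries with the main fit.

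Of the called genes, 3 encode secreted factors below the product. PTHLH encodes parathyroid hormone-related protein, a peptide that relaxes vascular smooth muscle (chromosome 5, 45750968 to 45763421, Sscrofa11.1). It stood at 7.16, 10.3 and 10.9 CPM in control replicates 1, 2 and 3, and at 11.7, 16.3 and 21.6 CPM with PDGF-BB. With S100A4 it reached 26.1, 42.5 and 44 CPM, and with both proteins 19.1, 25.3 and 32.3 CPM. Within each replicate number S100A4 alone gave the highest level, although the S100A4 and combination groups overlapped.

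S100A4 raised PTHLH 3.95-fold in cells without PDGF-BB and 1.55-fold in cells with it. The log2 interaction was -1.35 ± 0.11 (SE, n = 3 per group, adjusted p = 0.00013), and the replicates gave -1.15, -1.41 and -1.43. PDGF-BB raised PTHLH 1.73-fold on its own and lowered it to 0.681 of its level in cells with S100A4 (adjusted p = 2.5e-05). The combination stayed below the sum of the separate increments as well, by -19.1 ± 6.53 CPM (SD, n = 3).

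LIF encodes leukemia inhibitory factor, a cytokine of the IL6 family (chromosome 14, 47221540 to 47239513). Its levels were 21, 36.5 and 10.8 CPM in control cells, 199, 500 and 152 CPM with PDGF-BB, and 165, 419 and 151 CPM with S100A4. With both they were 913, 1540 and 821 CPM. The single treatments overlapped each other, and every combination library lay above all other libraries.

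PDGF-BB alone raised LIF 12-fold and S100A4 alone 10.5-fold, and both together raised it 50.8-fold over control. The product of the folds would have given 1550, 5730 and 2140 CPM, so the log2 interaction was -1.31 ± 0.20 (SE, adjusted p = 0.028). The sum of the increments would have given 342, 882 and 293 CPM, which the combination exceeded by 586 ± 67.5 CPM (SD, n = 3). LIF was below the product and above the sum in all 3 replicates. Its receptor subunit LIFR, not called, had an interaction of -0.37 (95% interval -0.60 to -0.13), and OSMR, a receptor subunit for the related oncostatin M, had -0.54 (-0.81 to -0.28). IL6R, the IL6 receptor, had 0.54 (0.16 to 0.92). None of these 3 passed in edgeR, and limma on the per-replicate values called OSMR. Over 18 JAK-STAT receptors and feedback genes, 10 were below and 8 above 0, with a median of -0.03.

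C3, the central complement protein (chromosome 2, 72431470 to 72471622), fell outside the rule for named genes because of its low level and was singled out after its values were seen. It held 3, 7 and 2 counts in control cells and 5, 16 and 5 with PDGF-BB. With S100A4 it held 88, 229 and 90 counts, and with both 6, 47 and 14. S100A4 alone was above all other libraries.

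PDGF-BB lowered C3 in cells with S100A4 to 0.166 of its level (log2 -2.59 ± 0.21, SE, adjusted p = 2.7e-07), a comparison that needs no control library. The fitted interaction of -3.54 ± 0.55 (SE, adjusted p = 0.028) rests on control libraries of 2 to 7 counts. The mean per-replicate log2 interaction of C3 was -3.64, -3.34 and -2.95 with prior counts of 0.5, 2 and 5. Without replicate 2 it was -3.79 and did not pass (adjusted p = 0.057, range over all alternatives 4e-05 to 1).

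Among receptors, BDKRB2 was called. It encodes the bradykinin B2 receptor (chromosome 7, 117438622 to 117472005). Control cells had 2.09, 3.93 and 4.2 CPM, PDGF-BB 11.3, 22 and 14.3 CPM, S100A4 10, 19 and 13.7 CPM, and the combination 23.7, 40.2 and 30.8 CPM. The single treatments overlapped, and the combination was above all of them. S100A4 raised BDKRB2 4.23-fold without PDGF-BB and 2.01-fold with it, an interaction of -1.08 ± 0.15 (SE, adjusted p = 0.028). As for LIF, the combination exceeded the sum of the increments, here by 4.86 ± 1.86 CPM (SD, n = 3).

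The receptor PDGFRB and the S100A4 transcript itself were not called. Their interactions were 0.03 (95% interval -0.08 to 0.14) and 0.11 (-0.09 to 0.31). TLR4 had 0.42 with a wide interval of -0.39 to 1.24.

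**Figure D2:**
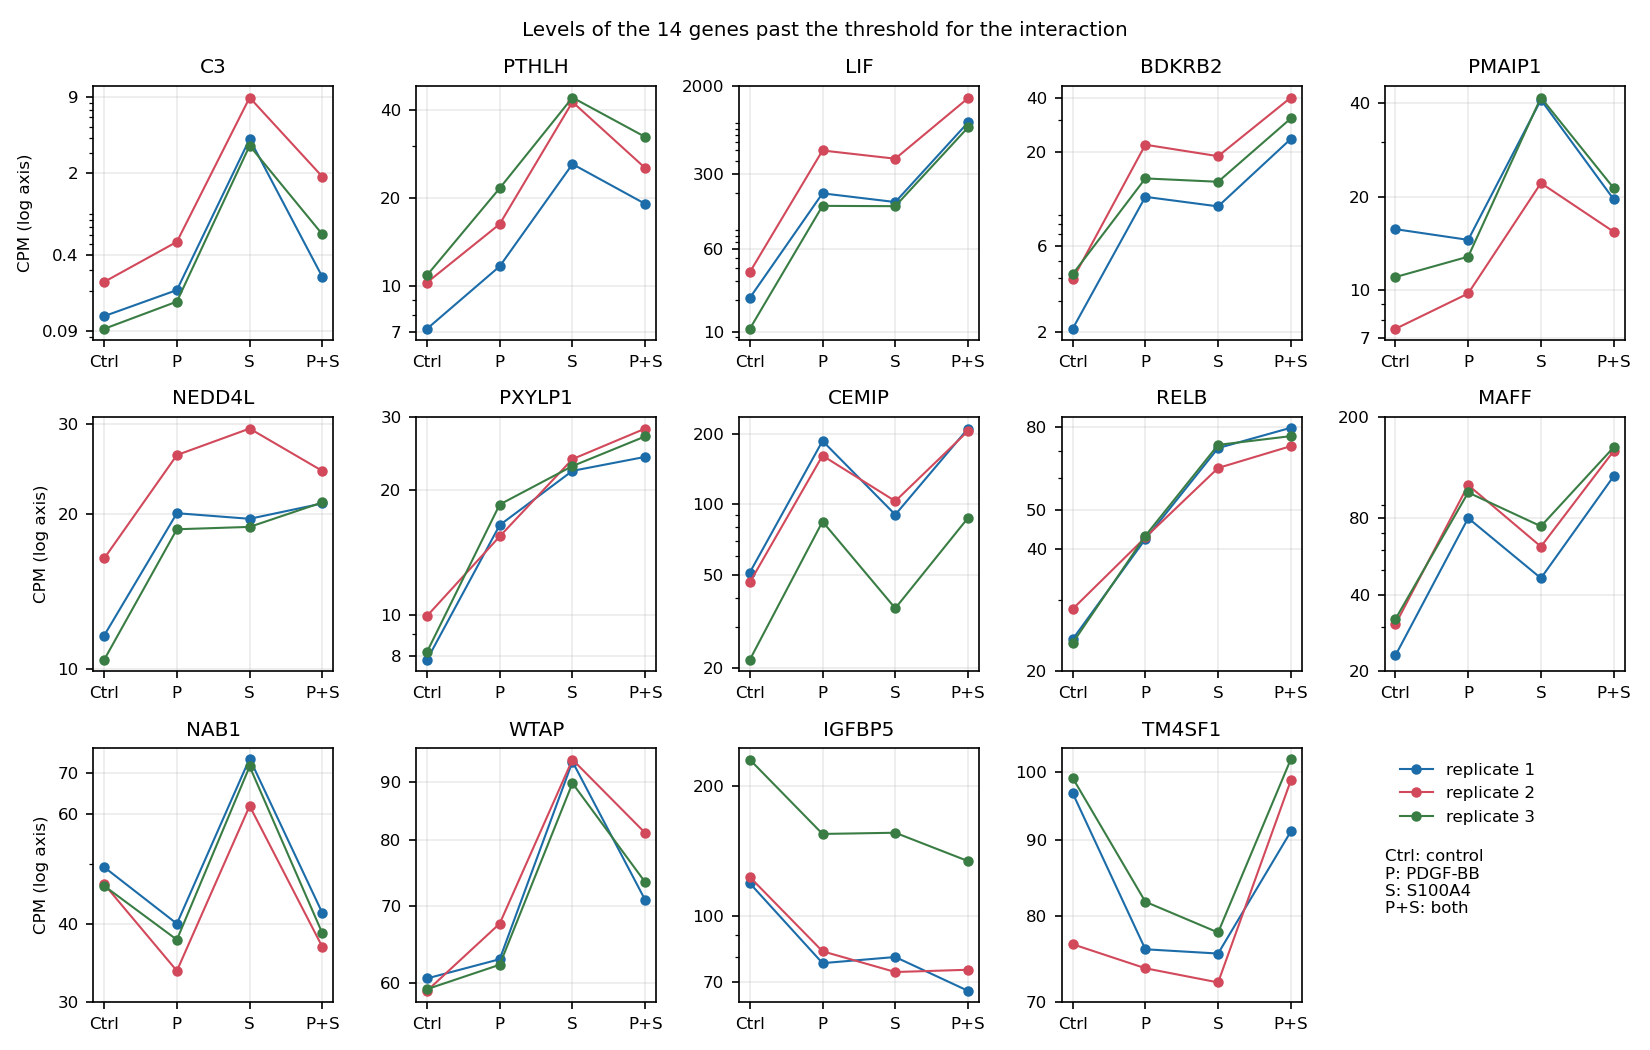
Each panel gives 1 called gene in CPM on a log axis for control (Ctrl), PDGF-BB (P), S100A4 (S) and both (P+S), with a line per replicate number. LIF, MAFF, BDKRB2, RELB, CEMIP and PXYLP1 are highest with both proteins in all 3 replicates, while C3, PTHLH, PMAIP1, NAB1 and WTAP are highest with S100A4 alone.

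Regulators of transcription and RNA followed. RELB is a subunit of NF-kB (chromosome 6, 51444670 to 51480350). It had 24, 28.5 and 23.5 CPM in control cells, 42.4, 42.8 and 43.2 CPM with PDGF-BB, 71.1, 63.5 and 72.4 CPM with S100A4, and 79.8, 71.9 and 76.1 CPM with both. The last 2 groups overlapped, and the other groups were separate from them and from each other. The S100A4 effect on RELB was 1.44 on the log2 scale without PDGF-BB and 0.83 with it, an interaction of -0.61 ± 0.10 (SE, adjusted p = 0.039).

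MAFF, a small MAF transcription factor (chromosome 5, 9683651 to 9696128), had 23.1, 30.6 and 32.1 CPM in control cells and 80.1, 108 and 101 CPM with PDGF-BB. It had 46.5, 61.9 and 74.4 CPM with S100A4 and 117, 147 and 152 CPM with both. No 2 of these groups overlapped. The interaction was -0.56 ± 0.09 (SE, adjusted p = 0.028), and the combination was above the sum of the increments by 10.3 ± 3.04 CPM (SD, n = 3).

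NAB1 encodes a corepressor of the EGR transcription factors (chromosome 15, 95248703 to 95295078). Its levels were 49.4, 46.4 and 46.1 CPM in control cells, 40.1, 33.7 and 37.8 CPM with PDGF-BB, 73.7, 61.9 and 71.6 CPM with S100A4, and 41.7, 36.8 and 38.7 CPM with both. The S100A4 libraries were above all others, and the combination overlapped PDGF-BB alone. S100A4 raised NAB1 by 0.54 on the log2 scale without PDGF-BB (adjusted p = 4.8e-06), and with PDGF-BB the difference was 0.07 (adjusted p = 0.47). The interaction was -0.47 ± 0.07 (SE, adjusted p = 0.028).

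WTAP belongs to the complex that writes N6-methyladenosine on mRNA (chromosome 1, 7622544 to 7651732). It had 60.5, 59 and 59.2 CPM in control cells, 62.9, 67.6 and 62.2 CPM with PDGF-BB, 93.8, 94.2 and 89.8 CPM with S100A4, and 70.9, 81.2 and 73.5 CPM with both. The 4 groups did not overlap. The interaction was -0.41 ± 0.07 (SE, adjusted p = 0.033). PDGF-BB alone gave 0.11 (adjusted p = 0.078), and in cells with S100A4 the PDGF-BB effect was -0.30 on the log2 scale (adjusted p = 0.00013).

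**Figure D3:**
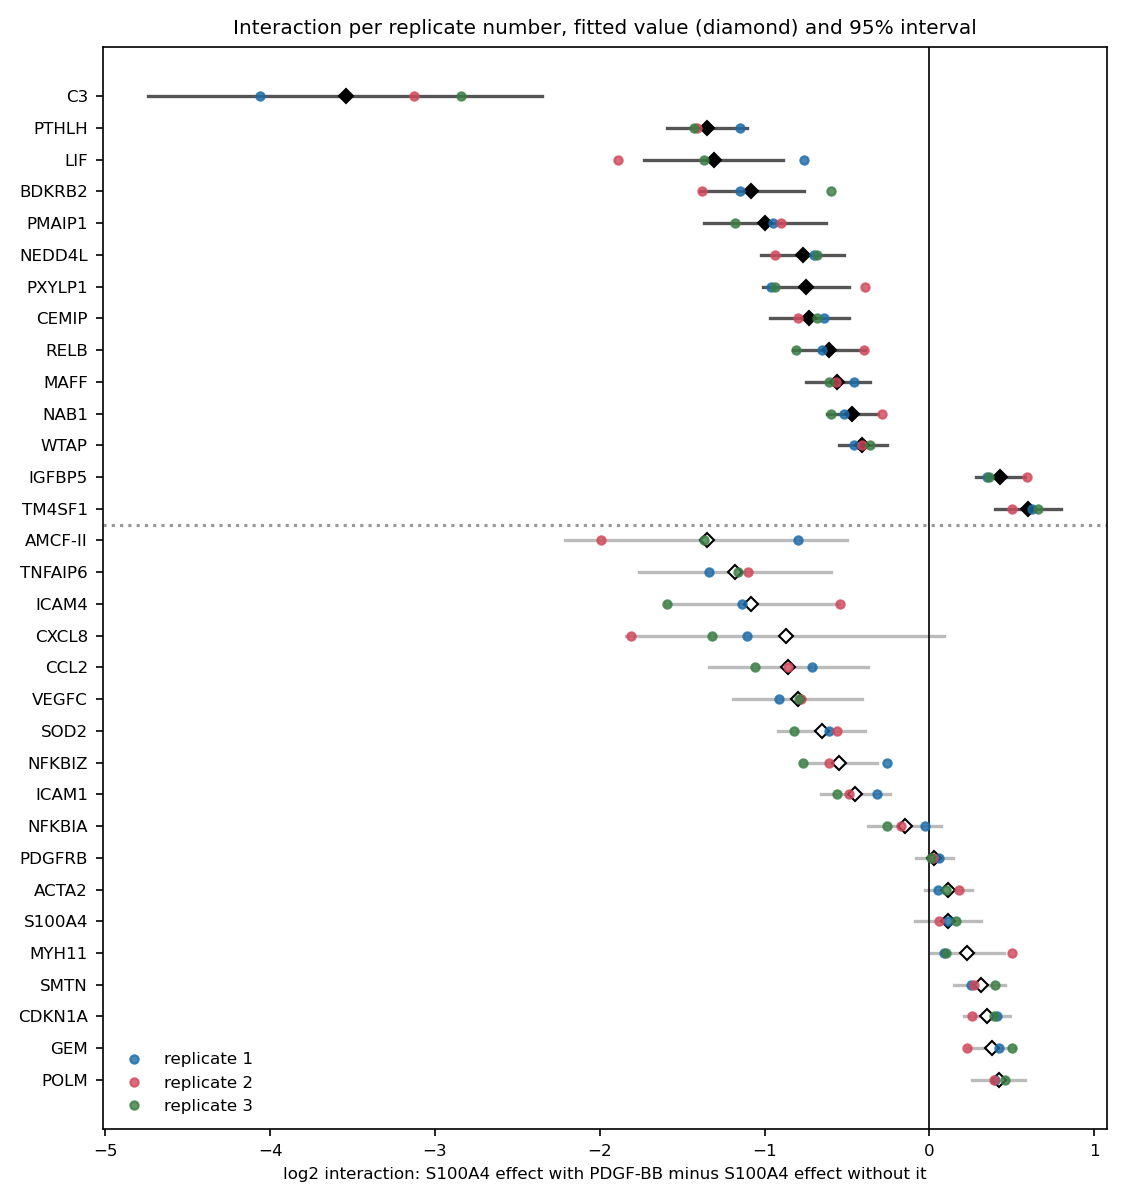
The log2 interaction is shown for the 14 called genes above the dotted line and for 18 other named genes below it, as 3 replicate values (coloured points), the fitted value (diamond) and its 95% interval (bar). For each called gene the replicate points lie on 1 side of 0, which the test favours. Fitted values run from C3 at -3.54 to TM4SF1 at 0.60.

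The other genes below the product act in cell death, protein turnover and the matrix. PMAIP1 encodes NOXA, a BCL2-family protein that promotes apoptosis (chromosome 1, 161184458 to 161188138). It stood at 15.7, 7.49 and 11 CPM in control cells, 14.5, 9.74 and 12.8 CPM with PDGF-BB, 41, 22.1 and 41.7 CPM with S100A4, and 19.6, 15.4 and 21.3 CPM with both. S100A4 alone was above all other libraries, and control and PDGF-BB overlapped. The S100A4 effect was 3.06-fold without PDGF-BB and 1.53-fold with it, an interaction of -1 ± 0.17 (SE, adjusted p = 0.04).

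NEDD4L is a ubiquitin ligase that limits ion channels and receptors at the membrane (chromosome 1, 162364053 to 162736515). Control cells had 11.6, 16.4 and 10.4 CPM, PDGF-BB 20.1, 26.1 and 18.7 CPM, S100A4 19.6, 29.4 and 18.9 CPM, and the combination 21, 24.3 and 21.1 CPM. The 3 treated groups overlapped one another and lay above control. Each protein alone raised NEDD4L, by 1.69-fold and 1.76-fold, and the combination reached 1.74-fold over control, with an interaction of -0.77 ± 0.12 (SE, adjusted p = 0.028).

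CEMIP binds hyaluronan and takes part in its breakdown (chromosome 7, 49622534 to 49792547). It had 51.1, 46.4 and 21.7 CPM in control cells, 186, 161 and 84.3 CPM with PDGF-BB, 90.2, 103 and 36 CPM with S100A4, and 210, 205 and 87.4 CPM with both. Replicate 3 was the lowest in every group, so the groups overlapped although the order within each replicate number was the same. The S100A4 effect was 0.92 on the log2 scale without PDGF-BB and 0.19 with it (adjusted p = 0.16), an interaction of -0.73 ± 0.11 (SE, adjusted p = 0.028).

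PXYLP1, a phosphatase of glycosaminoglycan synthesis (chromosome 13, 81951336 to 82049385), had 7.81, 9.96 and 8.16 CPM in control cells and 16.5, 15.5 and 18.5 CPM with PDGF-BB. It had 22.3, 23.8 and 22.9 CPM with S100A4 and 24.1, 28.2 and 27 CPM with both. The 4 groups did not overlap. Its interaction was -0.75 ± 0.12 (SE, adjusted p = 0.028), with -0.96, -0.39 and -0.94 in the replicates.

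The 2 genes above the product were lowered by each protein alone. TM4SF1 encodes a membrane protein of the tetraspanin-like L6 family (chromosome 13, 89591105 to 89600060). It stood at 96.8, 76.6 and 99.1 CPM in control cells, 76, 73.8 and 81.8 CPM with PDGF-BB, 75.5, 72.2 and 78 CPM with S100A4, and 91.2, 98.7 and 102 CPM with both. The combination was above both single treatments without overlap, and overlapped control. The log2 effect of S100A4 on TM4SF1 was -0.27 without PDGF-BB (adjusted p = 0.017) and 0.34 with it (adjusted p = 0.005), an interaction of 0.60 ± 0.09 (SE, adjusted p = 0.028).

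IGFBP5 encodes a secreted binding protein of insulin-like growth factors (chromosome 15, 118861816 to 118877787). It had 119, 123 and 231 CPM in control cells, 77.5, 82.6 and 155 CPM with PDGF-BB, 80.1, 73.9 and 156 CPM with S100A4, and 66.8, 74.8 and 134 CPM with both. Replicate 3 was high in every group and the groups overlapped, while control was the highest within each replicate number. PDGF-BB alone lowered IGFBP5 to 0.665 of control and S100A4 to 0.652. The combination stood at 0.585, with an interaction of 0.43 ± 0.07 (SE, adjusted p = 0.028).

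The next genes in this direction did not pass in edgeR. They were GEM, a small GTP-binding protein, at 0.38 (95% interval 0.23 to 0.52, adjusted p = 0.056), POLM, a DNA polymerase, at 0.42 (0.26 to 0.58, adjusted p = 0.056), and CDKN1A, the cyclin-dependent kinase inhibitor p21, at 0.35 (0.21 to 0.49, adjusted p = 0.068). Limma on the per-replicate values and DESeq2 called GEM, POLM and CDKN1A. In all, 26 genes had an edgeR adjusted p between 0.05 and 0.1, of which 19 were below the product.

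Product and sum gave different answers for some genes. Of the 12 genes below the product, 3 (LIF, BDKRB2 and MAFF) were above the sum of the increments in all 3 replicates and 9 were below it in all 3. Control was the lowest group in all 3 replicates for 10 of the 12. The order of the 4 levels is partly fixed by the sign that the test selected.

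**Figure D4:**
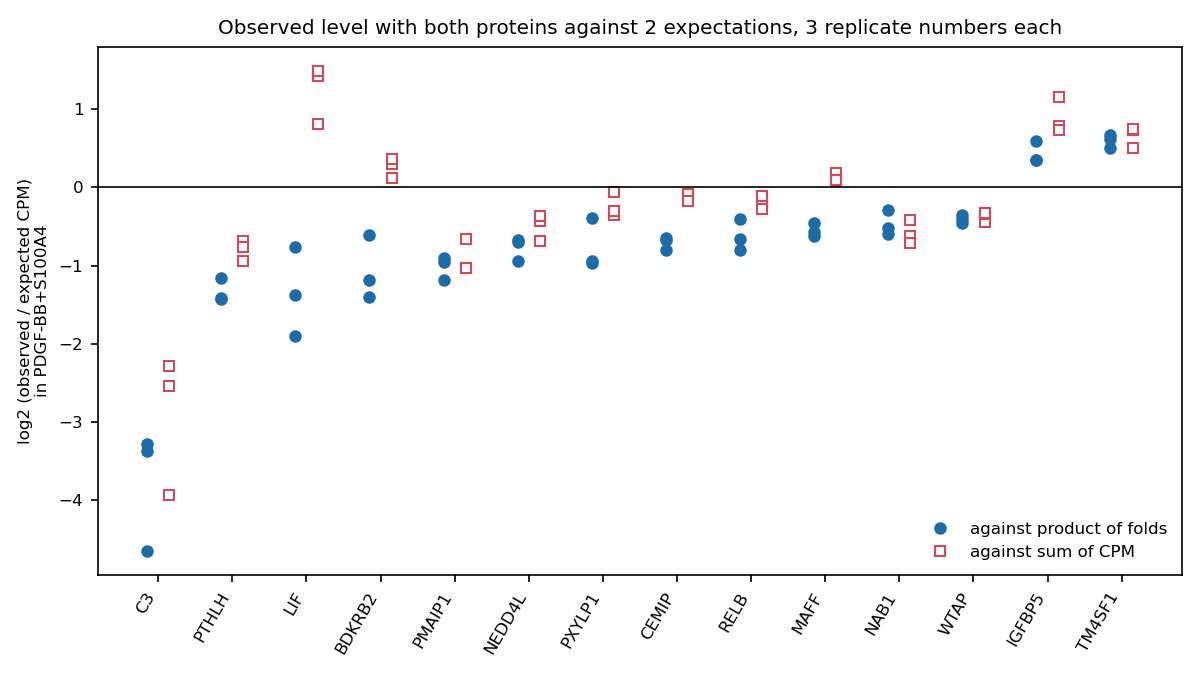
For each called gene the log2 ratio of the observed combination to the level expected from the product of folds (filled circles) and from the sum of CPM increments (open squares) is shown per replicate number. LIF, BDKRB2 and MAFF lie below 0 for the product and above 0 for the sum.

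Gene lists are described by counts and medians, beside the 0.112% of all genes called and the median of 0.01. At an unadjusted p under 0.05, 4.66% of all genes were below and 4.82% above the product, and limma on the per-replicate values called 1.57% below and 0.759% above. That limma fit called more genes than any other alternative. Limma-voom, run on the counts, called none of the genes named by the rule that edgeR did not call. DESeq2 called REL, NFKBIZ, SOD2, ICAM1 and TIMP1 among these, but not CCL2, CXCL8, VEGFC or SMTN. The 25 pathway lists and 7 marker lists held 515 tested genes, and 5 of the 14 called genes were in a list. Of 21 NF-kB subunits and inhibitors, 1 was called (RELB), 5 were below and 3 above the product at an unadjusted p under 0.05, limma on the per-replicate values called 4 below and 1 above, and the median interaction was -0.08. The subunit REL had -0.48 (95% interval -0.67 to -0.29, adjusted p = 0.072) and the inhibitor-like regulator NFKBIZ -0.55 (-0.78 to -0.32, adjusted p = 0.081), and limma on the per-replicate values called both. The inhibitor NFKBIA, a direct NF-kB target, had a log2 S100A4 effect of 1.96 without and 1.81 with PDGF-BB, and its interaction was -0.15 (95% interval -0.37 to 0.07).

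Chemokines had the lowest median, -0.58 over 8 tested genes, with none called by edgeR, 2 below the product at an unadjusted p under 0.05 (4.66% of all genes), and 4 below it by limma on the per-replicate values (1.57%). Values below 0 were found for 7 of the 8 (47.2% of all genes). CCL2, which attracts monocytes, had 312, 742 and 232 CPM in control cells, 756, 1910 and 717 CPM with PDGF-BB, 1190, 1850 and 1200 CPM with S100A4, and 1760, 2620 and 1780 CPM with both. Replicate 2 was the highest in every group, and the groups overlapped. Its interaction of -0.86 (95% interval -1.34 to -0.37) did not pass in edgeR (adjusted p = 0.22), and limma on the per-replicate values called it. For CXCL8, which attracts neutrophils and ranged from 1.17 to 29.8 CPM in control cells, the edgeR value was -0.87 (95% interval -1.84 to 0.09) and did not pass. Its replicates gave -1.11, -1.81 and -1.32, and limma on these values gave -1.41 and called it. The log2 interaction of CXCL8 without replicate 2 was -1.29 and passed as well. The chemokine median was -0.29 without replicate 3.

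Of 16 enzymes of prostaglandin synthesis and inflammation none was called by edgeR, 6 were below the product at an unadjusted p under 0.05 (4.66% of all genes), and 5 by limma on the per-replicate values (1.57%). The median was -0.23, and -0.15 without replicate 3. SOD2, the mitochondrial superoxide dismutase, had 152, 186 and 127 CPM in control cells, 125, 161 and 136 CPM with PDGF-BB, 508, 817 and 563 CPM with S100A4, and 273, 480 and 339 CPM with both. S100A4 alone was above all other libraries. Its interaction was -0.65 (95% interval -0.92 to -0.39, adjusted p = 0.074), and limma on the per-replicate values called it.

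Of 35 cytokines and growth factors, 2 were called, PTHLH and LIF, 8 were below and 1 above the product at an unadjusted p under 0.05, and limma on the per-replicate values called 6 below. The median was -0.09. VEGFC, a growth factor of lymphatic vessels, had -0.80 (95% interval -1.19 to -0.41, adjusted p = 0.12), and limma on the per-replicate values called it. Of 10 leukocyte adhesion molecules none was called by edgeR, 4 were below and 1 above the product at an unadjusted p under 0.05, and limma on the per-replicate values called 3 below. ICAM1, the ligand of leukocyte integrins, had -0.45 (-0.66 to -0.24, adjusted p = 0.11), and limma on the per-replicate values called it. Of 22 immediate early factors 1 was called (MAFF, median -0.04), and 2 were below the product at an unadjusted p under 0.05 and by limma. Of 14 inflammatory mRNA decay factors 1 was called (WTAP, median -0.14), 4 were below the product at an unadjusted p under 0.05, and limma called 3 below. None of 21 ERK feedback genes was called or had an unadjusted p under 0.05, by limma none either, and the median was -0.14. Values below 0 were found for 18 of the 21 (47.2% of all genes).

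No contractile gene of 25 tested was called by edgeR. At an unadjusted p under 0.05, 6 were above the product (4.82% of all genes), and 4 by limma on the per-replicate values (0.759%). Values above 0 were found for 24 of the 25 (52.8% of all genes), and for 18 of 19 FOXO targets and 18 of 22 glycolysis and hypoxia genes. The contractile median was 0.11, and 0.07, 0.19 and 0.09 in replicates 1, 2 and 3, highest in replicate 2, whose smooth muscle markers were low. Smoothelin (SMTN), a marker of contractile cells, had 435, 402 and 538 CPM in control cells, 299, 245 and 308 CPM with PDGF-BB, 342, 299 and 366 CPM with S100A4, and 279, 219 and 276 CPM with both. Control was above all other groups, and PDGF-BB alone overlapped each of the other treated groups. The S100A4 difference was -0.45 without and -0.14 with PDGF-BB. The interaction of 0.31 (95% interval 0.15 to 0.46) did not pass in edgeR (adjusted p = 0.15), and limma on the per-replicate values called SMTN.

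Matrix proteases and plasminogen activators had a median of 0.07 over 25 genes with none called by edgeR. At an unadjusted p under 0.05, 6 were above (4.82% of all genes) and 1 below the product (4.66%), and limma on the per-replicate values called 5 above (0.759%) and 2 below (1.57%). TIMP1, an inhibitor of matrix metalloproteinases, had 0.45 (95% interval 0.21 to 0.68, adjusted p = 0.17), and limma on the per-replicate values called it. ADAMTS4, an aggrecan-cleaving protease chosen after its values were seen, went the other way, at -0.98 ± 0.29 (SE, adjusted p = 0.31), and limma on the per-replicate values called it. Of 19 FOXO targets none was called, 2 were above the product at an unadjusted p under 0.05, limma called 1, and the median was 0.14 (0.08 without replicate 2).

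**Figure D5:**
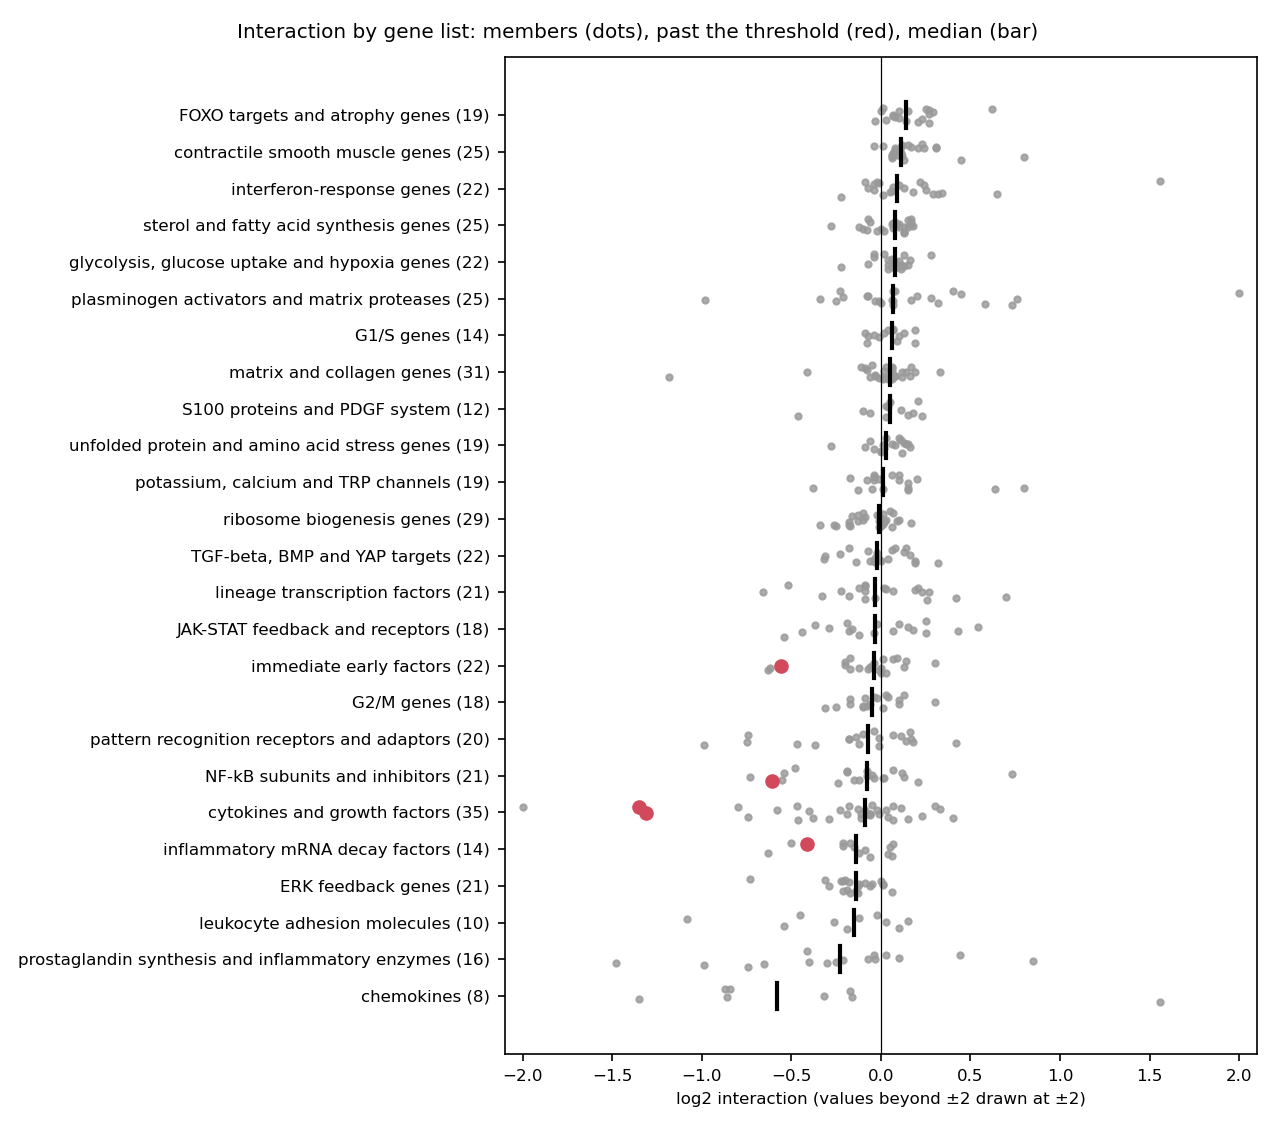
Each row is 1 of the 25 pathway lists (marker lists are not drawn) with its number of tested genes, each dot the log2 interaction of a member, red dots the called genes and the bar the median. Medians run from -0.58 for chemokines to 0.14 for FOXO targets, and the 5 called list members all lie below 0.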

How the data were processed

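Total RNA of the 12 cultures was sequenced as single-end reads with TruSeq libraries, per the labels' protocols. The deposited table holds raw counts per gene, and per the submitters' processing notes the authors used CASAVA 1.8.2, STAR 2.4, featureCounts 1.4.6 and build Sscrofa11.1. The settings, the annotation and the strand handling were not stated in the labels, so reads of overlapping or antisense genes may be mixed. The table has 0 other columns of per-sample values. Identifiers had a symbol for 14572 of 21153 genes, and coordinates were matched by symbol in RefSeq.

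Genes with at least 10 counts in 3 libraries were fitted with edgeR 4.0.16 (R 4.3.3, TMM, quasi-likelihood, two-sided, Benjamini-Hochberg, threshold 0.05). Terms were replicate number, PDGF-BB, S100A4 and their interaction. The block was used because the interaction is formed within a replicate number. After each gene was centred on its group mean, libraries with the same number deviated together (r 0.741 to 0.904 over 18 pairs). The 36 pairs of different numbers had r -0.673 to 0.136, values that the centring itself pushes below 0. The study used 3 animals, although no label ties a number to an animal. If the libraries are not separate cultures, p-values measure only the spread between them. Replicate libraries differed far beyond counting noise (chi-square per gene 21.9 to 158). Per-replicate values used log2 CPM with a prior count of 2. Alternatives used limma 3.58.1 and DESeq2 1.42.0, other scalings and filters, and left out libraries. The scripts were tested on simulated data.

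Genes were named where they carried a symbol, averaged 1 log2 CPM or more and had 1 sign in all replicates: the 12 largest interactions past the threshold per direction, and 3 near misses where fewer than 3 passed. From each list the 3 lowest adjusted p-values were added, with set markers and receptors. The report gives a selection of these. The members and lists were chosen with earlier results of these data known. At the edge of the count filter, 156 genes had 10 counts in exactly 3 libraries (median mean count 7.12) and 145 in exactly 2 (5.83).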

Additional observations from a re-analysis of the deposited data

Results flagged for a closer look

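Only the 14 called genes were searched for effects of opposite sign. For 4 of them the effect of one protein had opposite signs without and with the other in all 3 replicate numbers. The interaction itself is the test of that difference. Genes that were not called can show the same, as REL did, with PDGF-BB effects of 0.23 without S100A4 and -0.25 with it. TM4SF1 had an interaction of 0.6, with an S100A4 effect of -0.27 without PDGF-BB and 0.34 with it, and a PDGF-BB effect of -0.23 without S100A4 and 0.37 with it. PTHLH had -1.35, with a PDGF-BB effect of 0.79 without S100A4 and -0.55 with it. WTAP had -0.41, with PDGF-BB effects of 0.11, which did not pass (adjusted p = 0.078), and -0.30. C3 had -3.54, with PDGF-BB effects of 0.95, which did not pass (adjusted p = 0.14, on 2 to 16 counts a library), and -2.59.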

How the results depend on the processing

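The count of 14 genes was 15 with limma-voom, 15 with RLE and 13 with upper-quartile scaling, and 11 under the stricter filter. It was 0 without the replicate block (151 at an unadjusted p under 0.05), where the common biological coefficient of variation was 27.2% against 5.14% with it. It was 53 with DESeq2 (11 above and 42 below the product), 292 with limma on the 3 per-replicate values, 85 without a filter, and 1 (PTHLH) at an adjusted p under 0.01. DESeq2, limma on the 3 values and the unfiltered fit each kept all 14. Leaving out a replicate number or a library gave 1 to 126 genes. The cause of these shifts was not tested. No called gene reversed under any alternative, all of which used these same libraries. PTHLH passed in all but the fit without the block. Of 2127 values of uncalled named genes under the alternatives, 112 passed the threshold. The alternative fits, those with left-out libraries included, moved the median of all genes by -0.01 to 0.01. With 3 libraries per group and the block, the median 95% interval was ±0.23 on the log2 scale. That width is before adjustment over the 12520 genes, so larger interactions could also fail to pass. GEM at 0.38 and ICAM1 at -0.45 are examples.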
